A study of Mus musculus with 4 samples.

Results

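T cell coreceptors and lineage factors are the surface proteins and nuclear regulators by which kinds of T cell are told apart. They were followed here as 9 of the 18193 genes that the array names by 1 symbol, Cd8a, Cd8b1, Cd4, Eomes, Tbx21, Gata3, Foxp3, Runx3 and Ikzf2, in whole eyes that carried a T lymphoma. Every probe set that the platform annotation pairs with exactly 1 of these symbols was taken, which gave 18 of the 45101 probe sets on the Affymetrix mouse array. The arrays were 2 from splenectomized mice, in which the spleen had been taken out ahead of the tumour challenge, and 2 from intact mice, which had no surgery. All mice were of the C57BL/6 strain, male or female and over 7 weeks of age, and each received 10000 E.G7-OVA cells with a luciferase gene in the anterior chamber, which lies between cornea and iris, of an eye that was collected on day 15. E.G7-OVA is a C57BL/6 T lymphoma line that makes chicken ovalbumin, so the lymphoma and the T cells that enter the eye can both add to each signal. The labels do not give the sex of each animal or say whether the eyes were pooled, and p-values measure only the spread between these samples.

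CD8 is a pair of chains, encoded by Cd8a and Cd8b1, that holds the T cell receptor to class I MHC on target cells, whereas CD4 binds class II MHC. The T-box factors Eomes and T-bet (Tbx21) switch on interferon gamma and granule genes in cytotoxic T cells and natural killer (NK) cells. Runx3 keeps Cd4 silent in the CD8 lineage, Gata3 drives type 2 helper cells and T cell development, and Foxp3 together with Helios (Ikzf2) marks regulatory T cells. E.G7-OVA cells present an ovalbumin peptide on class I MHC and are a classical target of CD8 T cells in mice.

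In eyes of splenectomized mice the signals of both CD8 chains and of both T-box factors were higher than in eyes of intact mice. Cd8b1 was 5.57-fold higher, the 4 tested probe sets of Cd8a were 2.57-fold to 3.97-fold higher (2 of them were Absent on both intact arrays), Tbx21 was 2.31-fold higher, and Eomes was higher on 1 probe set that was Absent on both intact arrays. Gata3, Foxp3, Runx3 and Ikzf2 had overlapping groups, and Cd4 was called Absent on every array. None of these differences passed the threshold of 0.05 when adjusted over all probe sets tested.

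The authors called 56.2% and 56.9% of the non-control probe sets Present on splenectomized replicates 1 and 2, against 53.2% and 58.5% on intact replicates 1 and 2. The values are linear MAS5 signals scaled to the same trimmed mean of 150 on each array, and the median signal of an Absent probe set was 6.1. Only probe sets with 2 or more Present calls among the 4 arrays were tested, and these were 12 of the 18 member probe sets and 26285 probe sets in all. Of the 12, 3 were Present in the splenectomized pair alone and so passed this filter only through the group in which they were higher. Intact replicate 1 stood apart in eye tissue: the summed signal of 6 retina genes was 8981 and 5800 in splenectomized eyes, and 2331 and 10405 in intact eyes, and that of 6 lens genes was 28315 and 24807, and 12160 and 27420. Each eye is a mixture, and in such bulk samples fewer cells of a type and less RNA per cell cannot be told apart.

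The test was limma across the 26285 detected probe sets, which called 0 at an adjusted p under 0.05, 0.0% of those tested (smallest adjusted p = 0.134), and 0 of the 12 member probe sets. At an unadjusted p under 0.05 in limma, 7 member probe sets were higher in splenectomized mice and 0 were lower. The same limma fit gave 5.49% higher and 2.58% lower over all probe sets. The 7 were the 4 tested probe sets of Cd8a and 1 each of Cd8b1, Eomes and Tbx21, and they were also those whose groups did not overlap, which held for 20.0% of all tested probe sets in the higher and 19.7% in the lower direction. Among the 7 member probe sets Present on all 4 arrays, which the filter could not favour, 3 were higher at that level in limma (2 of Cd8a and the 1 of Cd8b1), against 6.07% of all such probe sets. The median log2 fold change of all tested probe sets was 0.030.

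**Figure D1:**
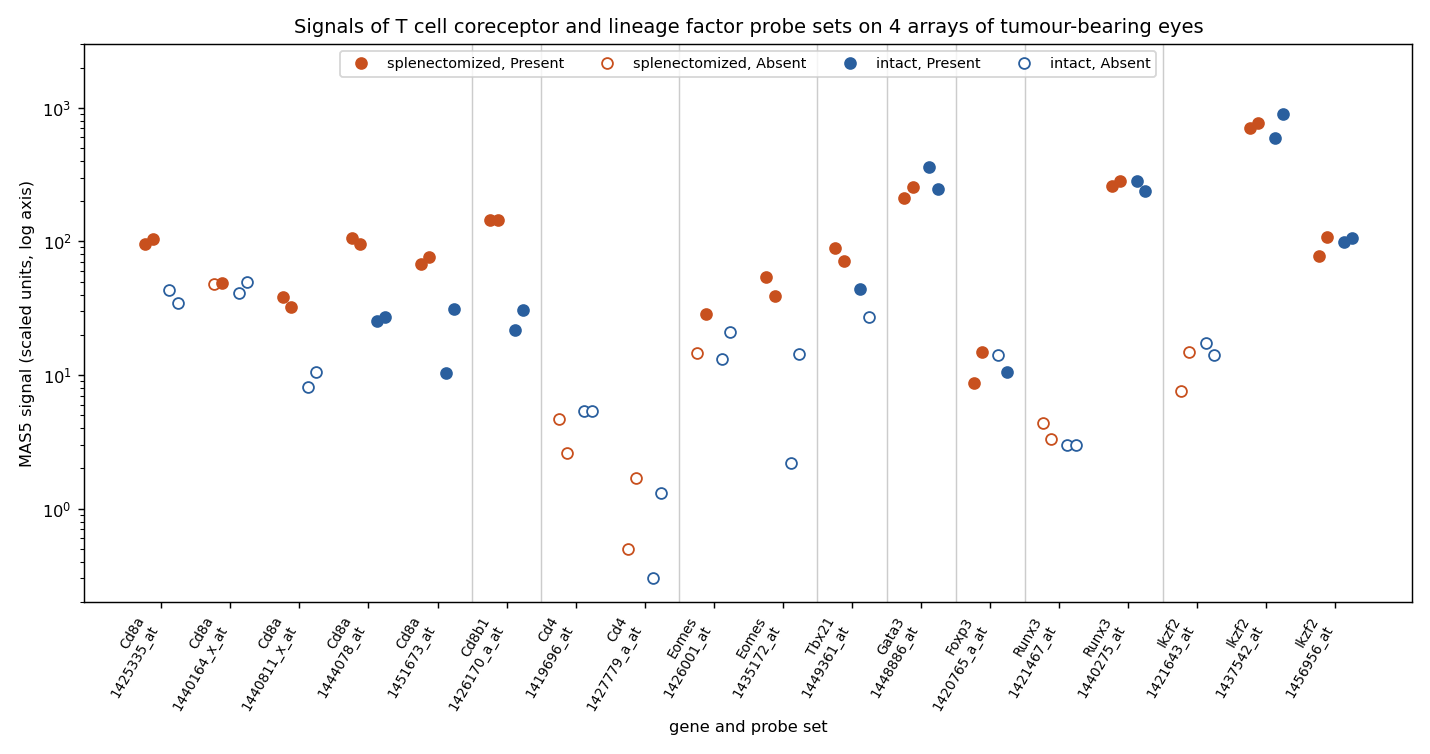
MAS5 signals (log axis) of the 18 probe sets on each array, with splenectomized eyes left of intact eyes, filled points for Present and open points for Absent calls. The Cd8b1 signals are 145.4 and 143.8 in splenectomized eyes and 21.9 and 30.8 in intact eyes, while both Cd4 probe sets have open points on all 4 arrays.

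Cd8b1, the beta chain found with the alpha chain on conventional cytotoxic T cells, had 1 probe set and was Present on all 4 arrays. Its signal was 145.4 and 143.8 in splenectomized eyes, and 21.9 and 30.8 in intact eyes. The groups did not overlap, and the lowest splenectomized value stood well above both intact values. The log2 fold change was 2.48 ± 0.27 (SE of limma), with a 95% interval of 1.80 to 3.15 and an adjusted p of 0.171 in limma. By unadjusted p it ranked 23 among all probe sets tested, and 0.186% of them had a larger log2 fold change.

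Cd8a, the alpha chain that carries the cytoplasmic tail binding the kinase Lck, had 5 probe sets, of which 2 were Present on all 4 arrays. The one built on the expressed tag BB154331 (1444078_at), a name the RefSeq table lists as a synonym of Cd8a, was at 106.3 and 94.8 in splenectomized eyes, and at 25.3 and 27.4 in intact eyes. The other (1451673_at), built on a Cd8a messenger RNA, was at 67.5 and 76.1 in splenectomized eyes, and at 10.4 and 31.3 in intact eyes. In neither did the groups overlap, and Cd8a transcript was thus detected in intact eyes as well. Their log2 fold changes were 1.93 ± 0.25 and 1.99 ± 0.55 (SE of limma), with adjusted p of 0.173 and 0.487 in limma. The second depended on which intact array was used, at 1.20 without intact replicate 1 and 2.78 without intact replicate 2.

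A further pair of Cd8a probe sets had Present calls on the 2 splenectomized arrays and Absent calls on the 2 intact ones. The brightest tested one (1425335_at) was at 95.8 and 104.3 in splenectomized eyes, and at 43.5 and 34.8 in intact eyes, a fitted 2.57-fold difference (adjusted p = 0.250 in limma). The second (1440811_x_at), whose suffix marks probes that can bind other transcripts, was at 38.4 and 32.0 in splenectomized eyes, and at 8.1 and 10.5 in intact eyes, a fitted 3.80-fold difference (adjusted p = 0.288 in limma). Neither probe set was called above background in intact eyes, so the size of these 2 folds is uncertain. The fifth (1440164_x_at) was at 48.2 and 48.6 in splenectomized eyes, and at 40.9 and 49.8 in intact eyes. It was Absent on 3 arrays, was not tested, and its groups overlapped, so 4 of the 5 Cd8a probe sets had the same direction with no overlap and 1 did not.

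Cd4, the coreceptor of helper and regulatory T cells, was Absent on all 4 arrays on both of its probe sets. The first (1419696_at) was at 4.7 and 2.6 in splenectomized eyes, and at 5.4 and 5.4 in intact eyes. The second (1427779_a_at) was at 0.5 and 1.7 in splenectomized eyes, and at 0.3 and 1.3 in intact eyes. All 8 values lay below the median Absent signal of 6.1, so no fold is given, and these probe sets do not show whether Cd4 messenger RNA was missing or too scarce to be called.

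Both T-box factors had higher signals in splenectomized eyes, with wide errors. Tbx21 was at 88.6 and 71.5 in splenectomized eyes, and at 43.8 and 27.0 in intact eyes, where the second was called Absent. The groups did not overlap, and the log2 fold change was 1.21 ± 0.33 (SE), with a 95% interval of 0.38 to 2.04 and an adjusted p of 0.480 in limma. It was 0.86 without intact replicate 2, the array with the lower Tbx21 signal.

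Eomes, the T-box factor of memory CD8 T cells and of maturing NK cells, was at 54.4 and 38.9 in splenectomized eyes, and at 2.2 and 14.3 in intact eyes on its detected probe set (1435172_at). Both intact values were Absent and far apart, and both splenectomized values were Present and above them. The fitted log2 fold change was 3.04 ± 0.91 (SE), with an adjusted p of 0.512 in limma. The size rested on intact replicate 1, since the log2 fold change was 1.69 without that array and 4.39 without intact replicate 2, and it was 2.30 with signals raised to the median Absent signal. The other Eomes probe set (1426001_at) was at 14.6 and 28.4 in splenectomized eyes, and at 13.1 and 20.8 in intact eyes. It was Absent on 3 arrays and its groups overlapped. Eomes is also made by some retinal ganglion cells in mice, and the retina sum given above was likewise lowest in intact replicate 1. That sum was highest in intact replicate 2, where Eomes was at 14.3 and Absent. The part of retina in the Eomes values was not tested.

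The promoters of the members that were higher together are shown so that the letters near their start sites can be read beside these values. RefSeq sequences of build GRCm38.p6, from 250 bases before to 50 after a start site, were at hand for 6 of the 9 genes (8 promoters of 300 bases). Capitals mark every match, on either strand, to RUNX letters (TGTGGT or TGCGGT), T-box letters (AGGTGT), letters of GATA factors (AGATAA or TGATAA), the STAT motif (TTCNNNGAA) or the CCAAT box. They are given 5′ to 3′ on the strand of the gene, for Cd8a at chr6:71373177-71373476 (plus strand), Eomes at chr9:118477939-118478238 (plus strand) and Tbx21 at chr11:97115282-97115581 (minus strand).
Cd8a: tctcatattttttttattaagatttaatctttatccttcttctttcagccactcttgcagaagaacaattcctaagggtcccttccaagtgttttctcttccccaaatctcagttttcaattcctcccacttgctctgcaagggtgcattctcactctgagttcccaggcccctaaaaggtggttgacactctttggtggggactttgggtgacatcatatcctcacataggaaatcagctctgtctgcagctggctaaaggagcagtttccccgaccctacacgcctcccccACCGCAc
Eomes: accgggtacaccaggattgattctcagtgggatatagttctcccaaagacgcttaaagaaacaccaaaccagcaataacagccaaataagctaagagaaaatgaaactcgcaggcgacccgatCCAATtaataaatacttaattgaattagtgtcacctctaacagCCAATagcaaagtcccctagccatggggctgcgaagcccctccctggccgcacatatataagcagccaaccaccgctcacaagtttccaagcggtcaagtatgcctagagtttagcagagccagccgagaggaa
Tbx21: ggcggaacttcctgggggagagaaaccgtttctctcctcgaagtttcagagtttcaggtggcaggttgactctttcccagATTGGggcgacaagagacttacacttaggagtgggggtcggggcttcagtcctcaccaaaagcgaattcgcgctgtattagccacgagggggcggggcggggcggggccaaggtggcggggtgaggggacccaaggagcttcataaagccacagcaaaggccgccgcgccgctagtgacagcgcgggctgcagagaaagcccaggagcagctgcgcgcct
The Cd8a promoter held 1 match to RUNX letters, TGCGGT on the minus strand, from base 294 of the window, and such letters occur in 22.4% of all 32851 promoters of the same length. Eomes held 2 CCAAT boxes and Tbx21 1, in the opposite orientation, and 37.4% of all promoters hold that box. None of these 3 windows held the T-box, GATA or STAT letters, found in 13.7%, 18.6% and 8.30% of all promoters, so the 3 promoters shared no motif of this set. Of the other promoters, the first of Runx3 held 2 matches to RUNX letters and 2 CCAAT boxes, and the 2 of Foxp3 held 2 and 1 GATA matches. These matches describe letters and show no binding.

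Gata3, the factor of type 2 helper cells that T lymphocytes also need to develop, was Present on all 4 arrays. Its signal was 210.8 and 253.7 in splenectomized eyes, and 359.1 and 245.8 in intact eyes. The groups overlapped, with intact replicate 1 alone clearly high, and the log2 fold change was -0.36 ± 0.24 (SE, adjusted p = 0.719 in limma) and -0.088 without that array. The summed signal of 11 pan T genes, which the injected lymphoma can express, was 11248 and 13038 in splenectomized eyes, and 16095 and 11343 in intact eyes. It was thus highest on the same array as Gata3, and its part in the Gata3 value was not tested.

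Foxp3, the defining factor of regulatory T cells, was close to background. Its signal was 8.7 and 14.9 in splenectomized eyes, both Present, and 14.1 and 10.6 in intact eyes, of which the first was Absent. The groups overlapped, and the log2 fold change of -0.10 had a 95% interval from -1.36 to 1.15 (adjusted p = 0.956 in limma), so a doubling in either direction lies within its error. The sign of this small value turned when 1 array was left out.

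Ikzf2 encodes Helios, an Ikaros family zinc finger protein of regulatory T cells and of other T lineage cells. Its brightest probe set (1437542_at) was at 707.9 and 764.0 in splenectomized eyes, and at 588.7 and 897.2 in intact eyes. A second (1456956_at) was at 77.3 and 108.3 in splenectomized eyes, and at 99.3 and 106.7 in intact eyes. Both were Present on all 4 arrays with overlapping groups, at log2 fold changes of 0.017 ± 0.23 and -0.17 ± 0.24 (SE), with adjusted p of 0.984 and 0.840 in limma. The third (1421643_at) was Absent on all 4 arrays, at 7.6 and 14.8 in splenectomized eyes and at 17.4 and 14.0 in intact eyes.

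Runx3 acts beside the T-box factors in cytotoxic T cells. Its detected probe set (1440275_at) was Present on all 4 arrays, at 258.9 and 285.0 in splenectomized eyes and at 284.6 and 237.6 in intact eyes. The groups overlapped, and the log2 fold change was 0.063 ± 0.17 (SE), with a 95% interval of -0.37 to 0.50 (adjusted p = 0.918 in limma). A doubling lies outside that interval, as it does for both detected Ikzf2 probe sets and for Gata3. The other Runx3 probe set (1421467_at) was Absent on all 4 arrays, at 4.4 and 3.3 in splenectomized eyes and at 3.0 and 3.0 in intact eyes.

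**Figure D2:**
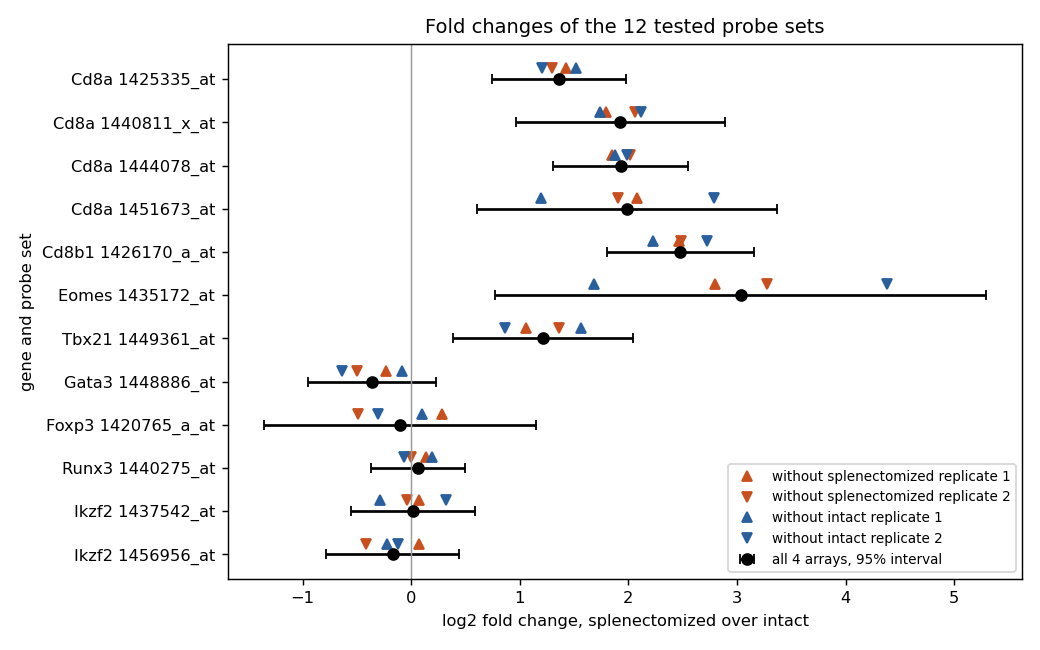
Log2 fold changes of splenectomized over intact eyes (black points, with 95% intervals of limma) for the 12 tested probe sets, and the same value with each array left out (coloured triangles). The 7 probe sets of Cd8a, Cd8b1, Eomes and Tbx21 stay above 0 with every array left out, as groups without overlap must. The widest interval is that of Eomes, from 0.77 to 5.30.

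Differences between log2 signals of 2 genes on the same array do not depend on how the array was scaled. Only how such a difference shifts between groups can be read, because its level depends on the probes. With 2 arrays per group the exact permutation test has 6 assignments and cannot go below p = 0.333. Tbx21 minus Gata3, the type 1 against the type 2 factor, was -1.25 and -1.83 in splenectomized eyes, and -3.04 and -3.19 in intact eyes. The shift was 1.57 with no overlap (exact two-sided permutation p = 0.333), and it was between 1.28 and 1.86 with any 1 array left out. Tbx21 was Absent on intact replicate 2 in this difference, and the lymphoma can add to the signals of both genes. Foxp3 minus Cd8a was -3.46 and -2.81 in splenectomized eyes, and -1.63 and -1.72 in intact eyes, a shift of -1.46. In it the Cd8a probe set (1425335_at) was Absent on both intact arrays and Foxp3 on intact replicate 1, so its size rests partly on signals not above background. With the Cd8a probe set Present on all 4 arrays (1444078_at), chosen after the data were seen, the difference was -3.61 and -2.67 in splenectomized eyes, and -0.84 and -1.37 in intact eyes. Eomes minus Tbx21 was -0.70 and -0.88 in splenectomized eyes, and -4.32 and -0.92 in intact eyes. That shift of 1.83 came from intact replicate 1, and it was 0.13 without that array. Eomes was Absent on both intact arrays in it.

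Set against the mean log2 signal of the 11 pan T genes on the same array, both CD8 chains were also higher in splenectomized eyes. Cd8a (1444078_at, Present on all 4 arrays) minus this mean was -1.93 and -2.23 in splenectomized eyes, and -4.23 and -3.53 in intact eyes. For Cd8b1 it was -1.47 and -1.63 in splenectomized eyes, and -4.44 and -3.36 in intact eyes. The shifts of 1.80 and 2.35 were about as large as the log2 fold changes themselves, and the groups did not overlap. Tbx21, Absent on intact replicate 2, shifted by 1.08 and Gata3 by -0.49, at -0.87 ± 0.091 in splenectomized against -0.38 ± 0.025 in intact eyes (SD, n = 2 each), again with no overlap. The pan T mean includes Cd2, Cd247 and Cd27, with log2 fold changes of 1.79, 0.54 and 0.51, while 7 of the 11 genes were lower. Cd27 was Absent on intact replicate 2. Cd2, Cd247 and Cd27 raise the mean in splenectomized eyes, so they enlarge the Gata3 shift and make the others smaller. The injected lymphoma can express the pan T genes, so no shift gives a share of the T cells that entered the eye. These shifts were computed after the data were seen and were not tested.

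**Figure D3:**
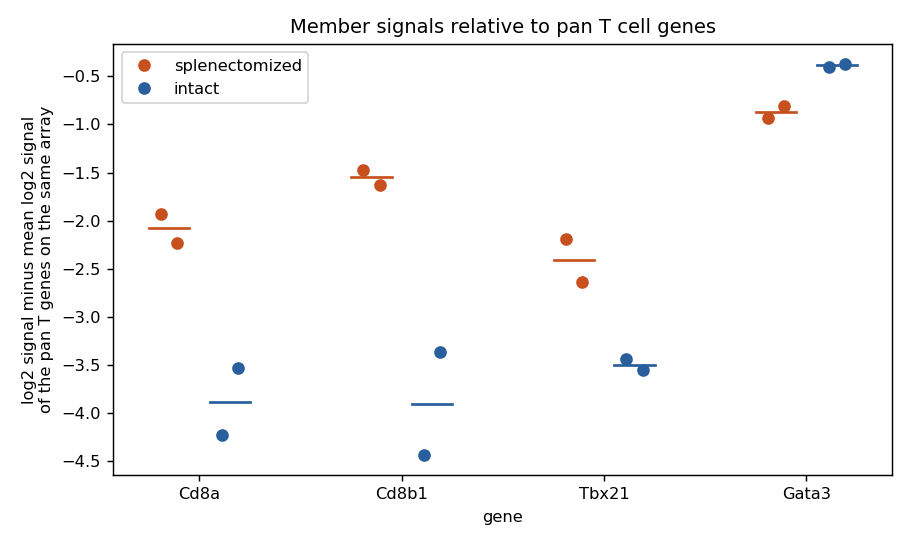
Log2 signal of 4 members minus the mean log2 signal of 11 pan T genes on the same array, for splenectomized eyes (left of each pair) and intact eyes, with bars at the mean of 2 arrays. Cd8a (1444078_at), Cd8b1 and Tbx21 lie higher in splenectomized eyes with no overlap, at shifts of 1.80, 2.35 and 1.08, and Gata3 lies lower.

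The genes that act with or below these factors were described from lists, with each gene represented by its brightest detected probe set. Over all 13148 detected genes, 55.1% were higher in splenectomized mice, the median log2 fold change was 0.047, and 0 passed in limma. At an unadjusted p under 0.05 in limma, 930 were higher and 317 lower. In each list below 0 genes passed in limma after adjustment over all probe sets. The lists were drawn up with earlier results of these data known.

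Effector genes linked to CD8 T cells and T-box factors were higher for all 13 members Present on all 4 arrays, by a median of 1.43 on the log2 scale, and 9 of these had an unadjusted p under 0.05 in limma. Over all 11424 genes Present on all 4 arrays, 5975 were higher, the median was 0.019, and 852 were higher at that level in limma. The remaining 2 list members, Gzmk and Crtam, were Present in the splenectomized pair alone and so passed the filter only through the group in which they were higher. Gzmb, which encodes the cytotoxic granule protease granzyme B, was at 1017 and 1031 in splenectomized eyes, and at 276.7 and 239.0 in intact eyes (adjusted p = 0.134 in limma). Of other CD8 and NK cell factors 6 of 9 were higher and 3 lower, with a median of 0.47. Id2, an inhibitor of E proteins needed by effector CD8 and NK cells, was 1.71-fold and Stat4, which relays interleukin 12 signals towards Tbx21 and Ifng, 1.88-fold higher (adjusted p of 0.252 and 0.588 in limma). NK cells share the T-box factors and many effector genes but lack Cd8b1. Of 5 genes of the NK list Present on all 4 arrays 4 were higher and 1 lower, with a median of 1.43. Of these, 3 were higher at an unadjusted p under 0.05 in limma. Klrc1 was at 314.7 and 231.0 in splenectomized eyes, and at 47.5 and 52.9 in intact eyes (adjusted p = 0.157 in limma). Klra8 was 2.78-fold and Klrk1 2.69-fold higher (adjusted p of 0.270 and 0.390 in limma). With Ncr1, which was Present in the splenectomized pair alone, the summed signal was 868.7 and 697.6 in splenectomized and 287.6 and 486.2 in intact eyes. Of this sum, Ncam1 gave 233.3 and 133.0 in splenectomized eyes, and 49.0 and 214.7 in intact eyes, so its spread weighs on the sum. Like the retina sum given above, Ncam1 was lowest in intact replicate 1. The part of retina in the Ncam1 values was not tested, so the summed signal cannot be read as NK cells alone. Ncr1, the NKp46 receptor that defines NK cells, was at 16.1 and 17.8 in splenectomized eyes, and at 2.5 and 8.3 in intact eyes, where it was Absent on both arrays. The part of NK cells in the Tbx21 and Eomes values was not tested.

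Regulatory T cell genes besides Foxp3 and Ikzf2 were higher for all 9 detected members, with a median of 0.79, and 6 had an unadjusted p under 0.05 in limma. Ctla4, an inhibitory receptor of regulatory and activated T cells, was 1.97-fold higher (adjusted p = 0.491 in limma). Icos, a costimulatory receptor of activated T cells, was at 198.5 and 148.8 in splenectomized eyes, and at 90.9 and 81.4 in intact eyes (adjusted p = 0.358 in limma). Capg, an actin-capping protein also abundant in macrophages, was 1.73-fold higher (adjusted p = 0.220 in limma). Each of these 3 is made by activated cells that need not hold Foxp3. Factors of CD4 helper cells were higher for 8 of 9, with a median of 0.30, and Bcl6, the factor of follicular helper cells, was 1.54-fold higher (adjusted p = 0.582 in limma). Zbtb7b, the factor that fixes the CD4 lineage, was Absent on all 4 arrays, as was Cd4. Of the type 2 genes Il4, Il5, Il13, Ccr4 and Ptgdr2 were Absent on all 4 arrays, and 2 were detected, 1 higher and 1 lower with a median of 0.095. Crlf2, the receptor of thymic stromal lymphopoietin, was the higher one, 1.38-fold (adjusted p = 0.510 in limma).

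Genes shared by all T cells and by thymocytes showed no common direction. Of 11 pan T genes 4 were higher and 7 lower, with a median of -0.14. Cd2, an adhesion receptor of T and NK cells, was 3.45-fold higher (adjusted p = 0.173 in limma), and Zap70, which relays T cell receptor signals, had a log2 fold change of -0.49 (adjusted p = 0.663 in limma). Of 8 naive and thymocyte factors 5 were higher, with a median of 0.088. Satb1, a chromatin organizer of T cells, was 2.21-fold higher (adjusted p = 0.250 in limma), and the recombinase genes Rag1 and Rag2 and the pre-T receptor gene Ptcra were Absent on all 4 arrays. Of the 4 other Ikaros family genes 1 was higher and 3 lower, with a median of -0.19. Ikzf1 and Ikzf3 had log2 fold changes of -0.25 and -0.31 (adjusted p of 0.745 and 0.707 in limma).

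Other cell types of the eye also differed between the arrays. All 8 macrophage genes were higher, with a median of 0.95, and all 8 had an unadjusted p under 0.05 in limma. Their summed signal was 11757 and 11725 in splenectomized and 6273 and 6138 in intact eyes. Of 3 myeloid and dendritic genes Present on all 4 arrays 2 were higher and 1 lower, with a median of 0.37. Ccr7 was 1.83-fold higher (adjusted p = 0.411 in limma). Siglech was Present in the splenectomized pair alone, at 31.8 and 31.5, against 22.8 and 23.2 in intact eyes. It thus passed the filter only through the group in which it was higher. Xcr1, which marks a kind of dendritic cell that can carry Cd8a, was Absent on all 4 arrays. Of B cell genes 1 was Present on all 4 arrays and was higher by 0.64 on the log2 scale, and Cd79a and Pax5 were Absent on all 4 arrays. The 8 epithelial genes of cornea and conjunctiva, 6 lens genes and 6 retina genes had medians of 0.17, 0.68 and 0.57. The part of these cell types in the member signals was not tested.

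**Figure D4:**
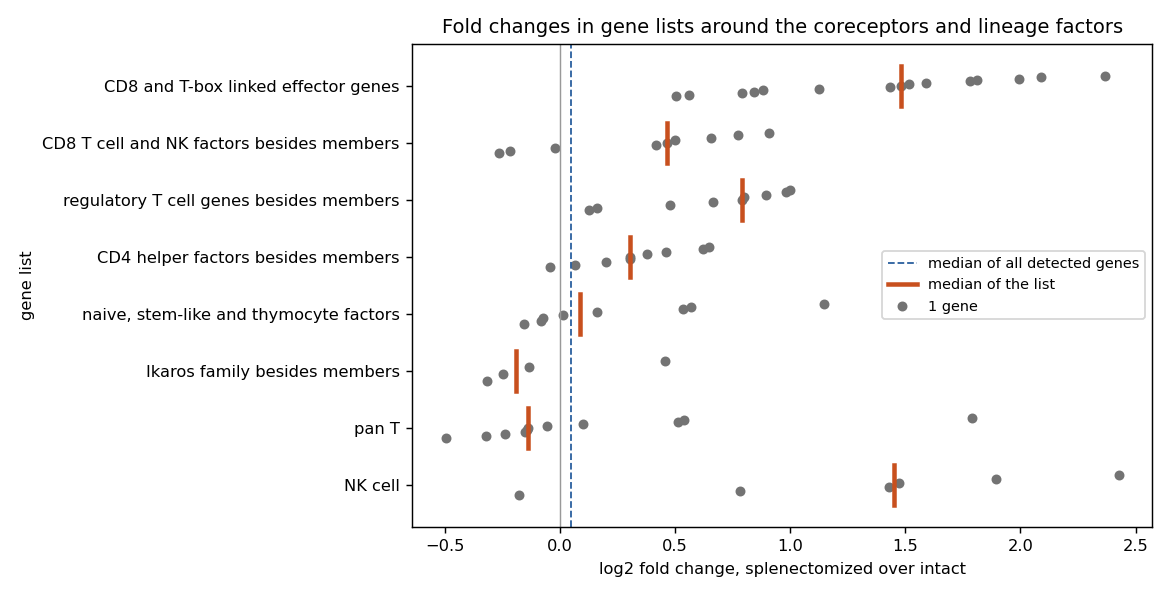
Log2 fold changes of splenectomized over intact eyes for the detected genes (grey points) of 8 lists, with the list median (orange bar) and the median of all 13148 detected genes (dashed line). All 15 effector genes lie above 0, of which 2 were Absent on both intact arrays, while the pan T and Ikaros medians lie at -0.14 and -0.19.

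The genes most like Cd8a over the 4 arrays were sought by the root mean square difference of log2 signals, each centred on the gene's own mean, among detected genes. The closest for the probe set 1425335_at, Absent on both intact arrays, was Trbv1, a variable segment of the T cell receptor beta chain, at a difference of 0.027. It was at 358.0 and 375.3 in splenectomized eyes, and at 154.5 and 127.1 in intact eyes. Procr and Cyp4f39 followed at 0.043 and 0.079. For Eomes the closest were Bpifc, Pou3f1 and Zbtb32 at 0.18, 0.28 and 0.28, all with low signals and Absent calls on 2 arrays. For Foxp3 they were Usp8, Caps2 and Zfp865 at 0.058 to 0.066, with log2 fold changes between -0.19 and -0.061. With 4 arrays, likeness says nothing of shared control.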

How the data were processed

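Total RNA of tumour-bearing eyes was hybridised to 4 1-colour Affymetrix arrays after biotin labelling, per the labels' protocols. The deposited signal intensities and Present or Absent calls (the other deposited values, 1 letter per array) came from GCOS 1.4 and MAS5 as run by the authors, per the submitters' processing notes. What the arrays were scaled to is not stated in those notes. The mean after trimming 2% at each end was 150 on each array.

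Of 45101 probe sets, 64 controls were left out, 34945 of the others had 1 gene symbol, 932 several and 9160 none. Symbols came from the platform annotation, and 34741 matched the RefSeq table of GRCm38.p6 by Entrez identifier with 0 changed. Signals were used on the log2 scale with 7 zeros raised to 0.1. The fit was limma 3.58.1 in R 4.3.3 (lmFit, eBayes with intensity trend), splenectomized against intact, no covariate, two-sided, Benjamini-Hochberg over 26285 probe sets Present on at least 2 arrays. It had 2 residual degrees of freedom and 3.55 from the prior. It was also run on simulated data with the same spread for every probe set. Spreads differ between probe sets in these data, so that run does not measure the accuracy of the fit here. The number of arrays limits the precision.

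Members, lists and naming rules were chosen with earlier results of these data known. The rule named every member probe set, up to 4 genes per list by smallest p, and the 3 genes most like Cd8a, Cd4, Eomes and Foxp3. Genes Absent on all 4 arrays could also be named. Gzmk, Crtam, Ncam1 and Cd27 were named outside the rule to state limits. Differences against Cd4 and genes like Cd4 are not given because Cd4 was Absent on all 4 arrays. Alternatives were other scalings, a pseudocount of 16, a floor at 6.1, other detection filters, no trend, 1 probe set per gene, no cross-hybridizing probe sets, a replicate block and each array left out. Plots used matplotlib 3.10.9 and Python 3.11.15.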

Additional observations from a re-analysis of the deposited data

How the results depend on the processing

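The 7 probe sets of Cd8a, Cd8b1, Eomes and Tbx21 were higher in splenectomized mice under every alternative that could be run on them. Leaving out an array could not turn their direction, because their groups did not overlap. Other filters, no trend, 1 probe set per gene and the replicate block leave a fold change as it was. With all 4 arrays and the planned settings, 0 member probe sets passed the threshold of limma. Over all probe sets 1 passed with quantile normalization. With an array left out, 0 to 3574 of the 26285 probe sets passed, and 0 to 6 of the 12 members, both highest without intact replicate 2. Fits with an intact array left out take their spread from the splenectomized pair alone and assume that the lone intact array varies like it. No conclusion is drawn from these counts. The shift of Eomes minus Tbx21 was 0.13 to 3.52 with an array left out, that of Foxp3 minus Cd8a -1.79 to -1.14, and that of Tbx21 minus Gata3 1.28 to 1.86.

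Small values turned sign. Median centring lowered every log2 fold change by the same amount, so values just above 0 turned. The cause of turns with an array left out was not tested. With median centring the log2 fold change was -0.027 for Runx3 and -0.073 for Ikzf2 (1437542_at). With an array left out it ranged from -0.49 to 0.29 for Foxp3, from -0.067 to 0.19 for Runx3, from -0.29 to 0.32 for Ikzf2 (1437542_at) and from -0.41 to 0.073 for Ikzf2 (1456956_at). The replicate numbers of the titles do not tie arrays to a shared animal or day. With the replicate block 0 probe sets passed and 1056 had an unadjusted p under 0.05 in limma, against 2120 without it. Deviations of same-numbered arrays correlated at -0.33 across probe sets, and with the crossed pairing, added after the data were seen, 358 probe sets passed, 2 of them members. Planned differences of Cd8a, Cd8b1 and Foxp3 against Cd4 were not run.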
